A study of Mus musculus with 14 samples.

Results

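Transcript levels of 51 genes of nitrogen disposal and amino acid breakdown were followed in mouse liver after an acute dose of tunicamycin, with and without hepatocyte Rbbp5. The 51 genes were taken as a fixed list by function, covering the urea cycle, the breakdown of single amino acids, and the methionine cycle, out of 24411 genes in the deposited counts. The list was chosen with earlier results of these data known. Male littermates aged 5 to 7 months all carried floxed Rbbp5 alleles, Rbbp5 (flox/flox). Animals called WT lacked Cre, Alb-CRE (-/-), and animals called LKO were Alb-CRE (+/-), in which the albumin promoter drives Cre in hepatocytes. Rbbp5 was not measured by cell type. The sample titles spell the LKO genotype RRBP5, and the design text spells it RBBP5. Rbbp5 encodes a core subunit of the histone H3 lysine 4 methyltransferases. Each genotype received 0.05 mg/kg tunicamycin in 500 µl of 3% DMSO in PBS, or the vehicle alone, by intraperitoneal injection between 9 and 10 in the morning, and liver was collected after 8 h. The deposited libraries numbered 6 for WT (3 with vehicle, 3 with tunicamycin) and 8 for LKO (4 with each). LKO vehicle libraries 3 and 4 agreed almost within sampling noise, and their reads were added together, so 13 samples were compared. The labels do not tie each library to its own animal, so p-values measure the spread between these samples, which may be technical in part.

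Hepatocytes strip the amino group from surplus amino acids and burn or convert the carbon skeletons. Aminotransferases pass the nitrogen to glutamate and aspartate, and glutamate dehydrogenase and glutaminase release it as ammonia inside mitochondria. The urea cycle then joins ammonia and aspartate nitrogen into urea, starting with carbamoyl phosphate synthesis in mitochondria and ending with the cleavage of arginine in the cytosol. The methionine cycle makes S-adenosylmethionine, the methyl donor of histone and DNA methylation, and the transsulfuration genes draw homocysteine out of it towards cysteine and taurine. Tunicamycin blocks N-linked glycosylation, and the unfolded proteins that follow stress the endoplasmic reticulum (ER). The enzymes listed here are cytosolic, mitochondrial or peroxisomal and are not themselves made in the ER.

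Upstream windows were examined because many of these genes shifted in one direction. Of the 51 genes, 40 had a window in the RefSeq promoter table (GRCm38.p6), read as the 250 bases before the transcription start. The following 5 windows belong to genes named in the comparisons below, and the sixth sequence is the whole interval between the starts of Dmgdh and Bhmt2. All are printed 5′ to 3′ on the gene's strand, the interval on the strand of Dmgdh, with motif matches in capitals.
Otc (+ strand, chrX:10252055-10252304): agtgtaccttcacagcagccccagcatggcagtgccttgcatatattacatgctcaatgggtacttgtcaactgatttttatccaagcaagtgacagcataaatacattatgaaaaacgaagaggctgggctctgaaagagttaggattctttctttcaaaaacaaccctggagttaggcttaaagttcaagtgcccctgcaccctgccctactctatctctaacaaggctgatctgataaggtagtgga
Nags (+ strand, chr11:102145263-102145512): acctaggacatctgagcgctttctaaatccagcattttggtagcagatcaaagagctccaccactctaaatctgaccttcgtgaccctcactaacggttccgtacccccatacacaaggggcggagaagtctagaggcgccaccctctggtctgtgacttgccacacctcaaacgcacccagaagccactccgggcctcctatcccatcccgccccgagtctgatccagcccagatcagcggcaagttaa
Sardh (- strand, chr2:27247304-27247553): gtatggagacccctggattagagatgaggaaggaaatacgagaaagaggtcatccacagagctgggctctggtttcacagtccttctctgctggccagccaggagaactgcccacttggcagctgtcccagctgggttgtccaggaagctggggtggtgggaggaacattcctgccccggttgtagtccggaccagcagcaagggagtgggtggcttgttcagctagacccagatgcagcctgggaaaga
Ahcy (- strand, chr2:155074498-155074747): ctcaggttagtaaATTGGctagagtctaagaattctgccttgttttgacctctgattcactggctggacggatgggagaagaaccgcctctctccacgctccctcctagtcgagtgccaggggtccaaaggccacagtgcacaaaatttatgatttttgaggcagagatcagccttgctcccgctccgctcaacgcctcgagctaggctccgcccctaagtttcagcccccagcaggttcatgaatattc
Tdo2 (- strand, chr3:81975729-81975978): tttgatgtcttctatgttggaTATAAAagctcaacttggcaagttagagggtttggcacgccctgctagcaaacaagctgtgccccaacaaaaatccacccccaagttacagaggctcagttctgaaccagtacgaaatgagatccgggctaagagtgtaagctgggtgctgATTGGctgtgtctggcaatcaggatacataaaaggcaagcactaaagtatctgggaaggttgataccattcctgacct
Dmgdh to Bhmt2 (+ strand, chr13:93674303-93674435): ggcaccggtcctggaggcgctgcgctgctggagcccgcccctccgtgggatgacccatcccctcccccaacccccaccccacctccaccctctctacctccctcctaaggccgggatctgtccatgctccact
The capitals mark a TATA box or a CCAAT box on either strand. Dmgdh and Bhmt2 start 133 bases apart and run away from each other. This interval had a GC content of 69.9%, against 43.6% in the Otc window and 55.6% in the Nags window.

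Matches of 8 motifs were counted on both strands of the 40 windows, 1 per member, and of 32841 windows of the whole promoter table. The latter were not limited to 1 per gene, so the 2 sets are not counted alike. Median GC content was 55.8% in the member windows and 52.4% in all windows. The CCAAT box (CCAAT) was found in 20 of 40 windows, or 50%, against 33.9% of all windows. It also opens the longer ERSE motif. The TATA box (TATAAA) was found in 5 windows, or 12.5%, against 12.4% of all. A C/EBP motif (TTGCNNAA) was found in Hgd, Aass and Hal, or 7.5%, against 9.57%. A composite C/EBP-ATF motif (TTGCATCA) was found in Got1 alone, or 2.5%, against 0.792%. These letters are not an instance of the C/EBP motif. No member window held the HNF4 motif CAAAGTCCA, the HNF1 motif (GTTAAT and ATTAAC with 1 base between), the cyclic AMP response element TGACGTCA or the ER stress response element ERSE (CCAAT and CCACG with 9 bases between). These were in 0.384%, 0.00913%, 1.55% and 0.113% of all windows. The counts describe the letters in these windows, and no binding was measured.

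Reads on the gene's strand numbered 6507018 to 13519421 per library, of which the ribosomal RNA gene Rn45s took 72.5% to 75.5%. This left 1704479 to 3551398 reads per library for all other genes, and 33301 to 74766 reads per library on the 51 members. The summed sample held 108830 reads on them. Levels are given as CPM, read counts divided by a library size that TMM corrects for composition. Rbbp5 was at 5.19 ± 1.17 CPM with vehicle and 5.36 ± 0.342 CPM with tunicamycin in WT (SD, n = 3 each), and at 2.94 ± 1.13 CPM (n = 3) and 2.86 ± 0.597 CPM (n = 4) in LKO. LKO vehicle 1, at 4.14 CPM, lay inside the WT vehicle range, so directions drawn from the LKO vehicle group rest partly on a sample that this check does not separate from WT. Hspa5, which encodes the ER chaperone BiP, stood at 196, 210.3 and 252 CPM in WT vehicle and 853, 313 and 784 CPM in WT tunicamycin. In LKO it stood at 127, 116 and 173 CPM with vehicle and 228, 142, 181 and 207 CPM after tunicamycin. The liver label was checked with 7 hepatocyte markers including Alb, Ttr and Apob, which were all read in every sample and summed to 23468 to 38406 CPM. The kidney markers summed to at most 0.108 CPM, the lymphocyte markers to at most 1.18 CPM and the pancreas markers to at most 2.47 CPM. In these whole-liver samples, fewer hepatocytes and less RNA per hepatocyte cannot be told apart.

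The members spanned a wide range of transcript levels in untreated WT liver. Only the deposited FPKM values, which divide by transcript length, allow levels of different genes to be compared. Bhmt, which remethylates homocysteine with betaine, had 139 ± 52.7 FPKM in WT vehicle (SD, n = 3). Tat, the tyrosine aminotransferase, had 134 ± 20.1 FPKM. Next were Ass1 at 91.4 ± 14.8, Cps1 at 91.2 ± 9.94 and Cdo1 at 89.2 ± 7.83 FPKM, whose SDs overlap, so their order is not resolved. At the low end were Nags at 1.56 ± 0.103, Acmsd at 0.992 ± 0.379 and Amt at 0.989 ± 0.396 FPKM. Within the urea cycle, Cps1, Ass1 and Arg1 (79.2 ± 2.88 FPKM) were the most abundant, Otc (22.3 ± 0.416), Asl (14.7 ± 1.81) and the ornithine carrier Slc25a15 (9.43 ± 0.319) were lower, and Nags was the lowest.

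**Figure D1:**
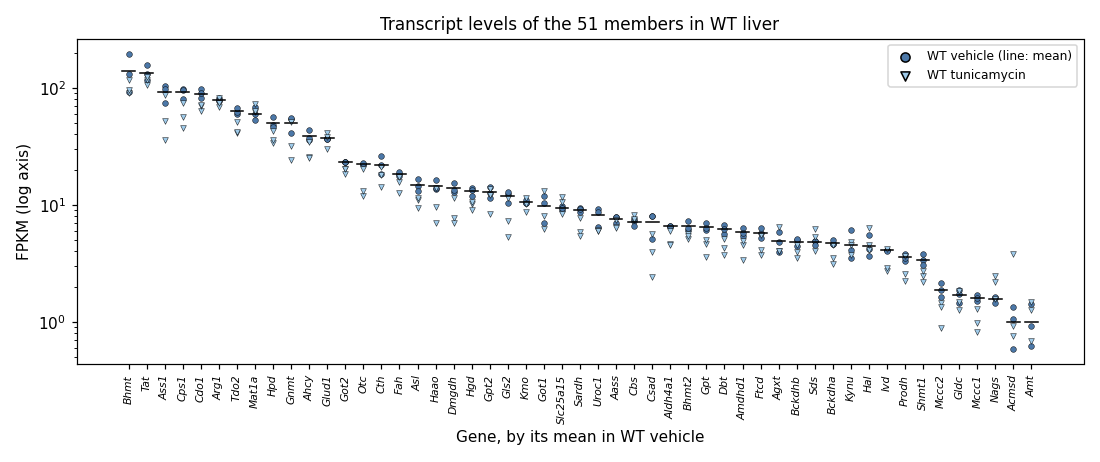
Deposited FPKM of the 51 members in WT liver on a log axis, ordered by the mean in WT vehicle (line). Circles are the 3 WT vehicle samples and triangles the 3 WT tunicamycin samples. The order runs from Bhmt at 139 FPKM to Amt at 0.989 FPKM, and the triangles of Cps1 and Ass1 reach below the circles.

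Of the 51 members, 50 had enough reads to be tested by edgeR, and Ass1 was the exception. Ass1, argininosuccinate synthase (chromosome 2, 31470270 to 31520670, mm10), had 0 to 2 reads per sample in the deposited counts but 74.6, 103 and 96.8 FPKM in WT vehicle. The deposited FPKM values after tunicamycin in WT were 35.7, 52.2 and 86.3. In LKO they were 118, 65.6, 81.2 and 86.5 in vehicle libraries 1 to 4 and 38.6, 56.1, 73.6 and 61.3 after tunicamycin. Ass1 therefore enters through FPKM alone. Its log2(FPKM + 1) difference with tunicamycin in WT was -0.72 ± 0.32 (SE) by limma, with an adjusted p of 0.210, and the lowest WT vehicle value lay below the highest WT tunicamycin value.

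The tunicamycin comparison in each genotype asks how these genes respond to acute ER stress. Transcripts of amino acid breakdown were mostly lower after tunicamycin in both genotypes, by modest amounts, with no single gene past the test. In WT, 38 of 50 members had a negative log2 fold change and the median was -0.23, against 0.01 over all 9644 genes tested. In LKO, 42 of 50 were negative and the median was -0.25, against 0.00 over all genes. A negative value in both genotypes was found for 37 of 50 members, or 74%, against 30.69% of all genes tested. These 2 comparisons share no samples, but the list was chosen with earlier results of both known, so the shared direction is descriptive.

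By the quasi-likelihood test of edgeR, with Benjamini-Hochberg adjustment over all genes, 0 of 50 members passed an adjusted p under 0.05 in WT, where 0.363% of all genes passed. In LKO 0 of 50 passed, where 0.0311% of all genes passed. DESeq2 called 0 of 49 members in WT, where it called 3.12% of the 4900 genes to which it gave an adjusted p. In LKO it called 4 of 38, Sardh, Asl, Hpd and Ahcy, against 2.23% of 1526 such genes. On log2(FPKM + 1) limma called 0 members in either genotype, against 0.0667% and 0% of all genes. At an unadjusted p under 0.05, 9 members were lower and 1 was higher in WT, against 6.86% and 7.92% of all genes. In LKO 21 were lower and 0 higher, against 6.33% and 5.83%. Both genotypes shared 9 members lower at this unadjusted threshold, or 18% of those tested, against 2.31% of all genes. The CPM ranges of vehicle and tunicamycin samples did not overlap for 7 lower and 2 higher members in WT, against 8.68% and 8.62% of all genes. In LKO this held for 18 lower and 0 higher members, against 6.55% and 5.03%.

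The WT counts rested on single samples. WT tunicamycin 1 had 36 of 50 members below the whole WT vehicle range and a median log2 ratio to the vehicle mean of -0.48. WT tunicamycin 2 had 29 below and a median of -0.23. WT tunicamycin 3 resembled the vehicle samples, with 12 members below the range, 26 within it, 12 above it, and a median of -0.03. These range counts were not made over all genes, so they do not separate the members from a shift of a whole sample. Without WT tunicamycin 3, edgeR called 6 members in WT at an adjusted p under 0.05, which were Cps1, Otc, Nags, Dmgdh, Sardh and Haao, and 21 were lower at an unadjusted p under 0.05. Over all genes the same fit called 615 of 9941, or 6.19%, and 9.72% were lower at the unadjusted threshold. The 6 of 50 members thus came with a rise of calls over all genes. Haao is named here after its value was seen. Without WT tunicamycin 1, WT tunicamycin 2, WT vehicle 2 or WT vehicle 3, the members lower at that threshold numbered 0, 4, 4 and 5, against 4.56%, 5.12%, 6.20% and 5.84% of all genes. Hspa5 was 853 CPM in WT tunicamycin 1, 313 CPM in WT tunicamycin 2 and 784 CPM in WT tunicamycin 3. A relation between Hspa5 and the members' values was not tested.

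The LKO tunicamycin samples were more alike than the WT tunicamycin samples. Each of the 4 LKO tunicamycin samples had 24 to 32 members below the LKO vehicle range and 2 to 8 above it, with medians from -0.36 to -0.19. Here too, range counts over all genes were not made. Without LKO vehicle 1, the sample whose Rbbp5 level lay in the WT range, 35 of 50 members were negative and 11 were lower at an unadjusted p under 0.05, against 5.33% of all genes. WT tunicamycin 3 enters the LKO comparison only through the shared estimate of the spread, the scaling and the filter on low counts. Without it, 4 members passed the adjusted threshold in LKO, Sardh, Asl, Hpd and Otc. The calls over all genes went from 3 to 67 of 9941, or 0.674%. With no filter on low counts 5 passed, Sardh, Asl, Hpd, Ahcy and Prodh, against 153 of 16251 genes, or 0.941%.

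Scaling moved the size of the WT shift and not its direction. Total count scaling lowered the median of all genes in WT by tunicamycin to -0.18, and the members' median to -0.42, so they stood below all genes by a similar margin. Members below the median of all genes numbered 38 of 50 in WT and 42 of 50 in LKO with TMM, and 39 and 43 with total counts. Summed over the list, members made up 5734 to 6917 CPM in WT vehicle, 4575 to 6336 in WT tunicamycin, 5449 to 6502 in LKO vehicle and 4735 to 5397 in LKO tunicamycin. In LKO the treated and vehicle ranges did not overlap, and in WT they did.

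Markers of other cells differed in part with the treatment and in part with the genotype. The 7 Kupffer cell and macrophage markers all had positive tunicamycin values in both genotypes and were all read in every sample. Of these, 0 passed, with a smallest edgeR adjusted p of 0.466 in WT and 0.215 in LKO. Higher at an unadjusted p under 0.05 were 0 in WT and 5 in LKO, against 7.92% and 5.83% of all genes. The 7 markers summed to 46.6 to 52.1 CPM in WT vehicle, 51.3 to 65.9 in WT tunicamycin, 34.7 to 56.9 in LKO vehicle and 52.8 to 106.7 in LKO tunicamycin. The 5 bile duct markers, most of whose reads were Spp1, summed to 8.59 to 11.7, 8.48 to 42.5, 17.4 to 55.1 and 35.7 to 110.5 CPM in the same order. Stellate cell and fibroblast markers summed to 63.7 to 105, 89.0 to 124, 111 to 151 and 104 to 163 CPM. With vehicle, all 6 tested stellate markers were positive in LKO against WT, with a median log2 fold change of 0.86. The 2 tested bile duct markers were positive there as well. None of these passed in edgeR, with a smallest adjusted p of 0.0796 among the stellate and 0.294 among the bile duct markers. Higher at an unadjusted p under 0.05 were 3 stellate markers and 1 bile duct marker, against 4.71% of all genes. The 7 endothelial markers summed to 57.4 to 86.3 CPM over all samples. The hepatocyte marker sum did not drop with the members. It was at 23468 to 25843 CPM in WT vehicle and 24789 to 38406 in WT tunicamycin. In LKO it was at 24645 to 29894 CPM with vehicle and 23977 to 31884 after tunicamycin. The sum weighs its genes unequally, with 1638956 reads on Alb and 45289 on Serpina1a. With tunicamycin in WT, 6 of the 7 markers were positive and 1 negative, from -0.23 to 1.31 on the log2 scale. In LKO 5 were positive and 2 negative, with a median of 0.17. At an unadjusted p under 0.05, 2 were higher in each genotype, against 7.92% of all genes in WT and 5.83% in LKO. Whether the share of hepatocytes changed was not tested. The part of other cell types in the members' values was not tested.

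**Figure D2:**
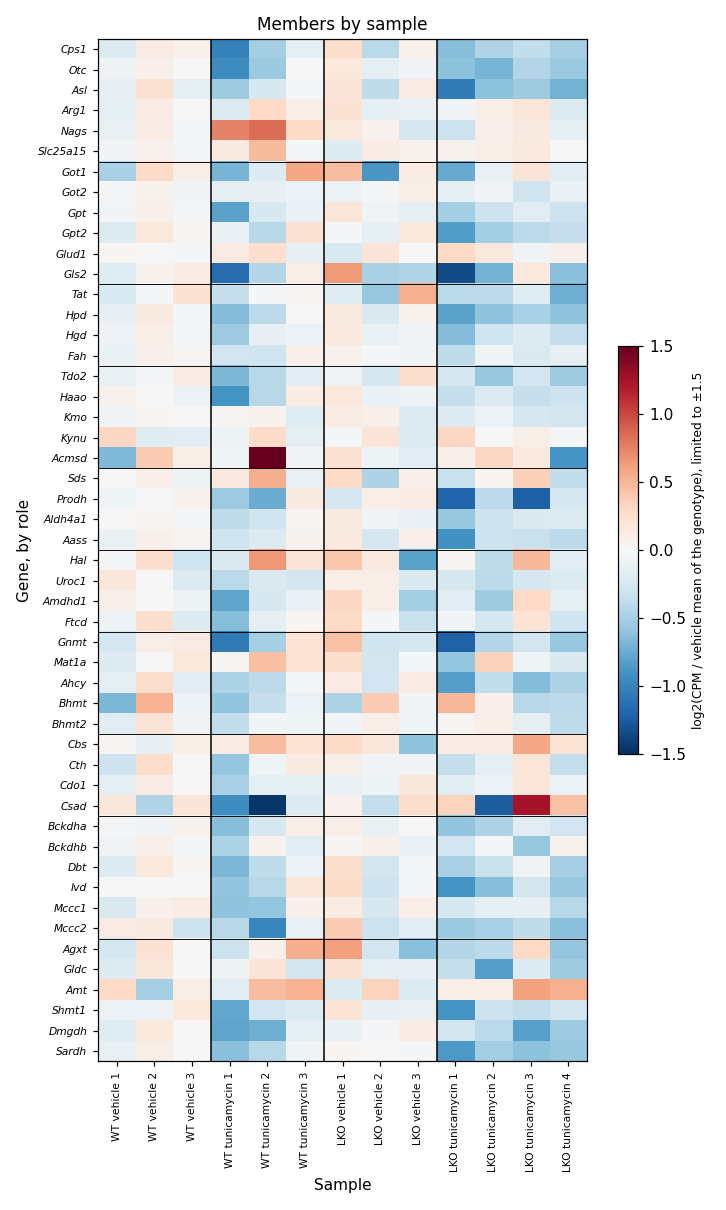
Each of the 50 tested members (rows, grouped by role) in each of the 13 samples (columns), as log2 of its CPM over the vehicle mean of the same genotype, with colours limited to ±1.5. Blue is lower and red is higher. WT tunicamycin 1 and the LKO tunicamycin samples are mostly blue, and WT tunicamycin 3 is close to white.

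Urea cycle genes split into a lower group and a group with values near 0. Cps1, Otc and Asl had negative log2 fold changes in both genotypes, Arg1 and Slc25a15 were within 0.21 of 0 in both, and Nags was positive in WT alone, a contrast taken up with the interaction below. Of the 6 tested, 2 were lower and 1 higher at an unadjusted p under 0.05 in WT, against 6.86% and 7.92% of all genes. In LKO 3 were lower and 0 higher, against 6.33% and 5.83%.

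Cps1, carbamoyl phosphate synthetase and the entry enzyme of the cycle (chromosome 1, 67123027 to 67231267, mm10), was at 1221, 1528 and 1474 CPM in WT vehicle and 698, 990.2 and 1271 CPM in WT tunicamycin samples 1 to 3. The LKO samples had 1419, 896 and 1245 CPM with vehicle and 765, 865, 919 and 839 CPM after tunicamycin. WT tunicamycin 3 lay inside the WT vehicle range and LKO tunicamycin 3 above LKO vehicle 2, while the other treated samples lay below their vehicle range. The log2 fold change of Cps1 was -0.51 ± 0.22 (SE) in WT and -0.49 ± 0.20 in LKO, with edgeR adjusted p of 0.276 and 0.347. This corresponds to 29.9% less Cps1 transcript in the WT mean.

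Otc, ornithine transcarbamylase, which makes citrulline (chromosome X, 10252359 to 10321024), was at 134, 149 and 141 CPM in WT vehicle and 73.4, 95.8 and 141 CPM in WT tunicamycin. In LKO it was at 133, 107 and 116 CPM with vehicle and 77.3, 73.3, 87.6 and 80.6 CPM after tunicamycin. All 4 treated LKO samples lay below all 3 LKO vehicle samples, while WT tunicamycin 3 lay inside the WT vehicle range. For Otc the log2 fold change was -0.45 ± 0.18 in WT and -0.57 ± 0.17 in LKO, with edgeR adjusted p of 0.255 and 0.240. The Otc window printed above held none of the 8 motifs.

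Asl, argininosuccinate lyase, which releases arginine and fumarate (chromosome 5, 130011503 to 130024331), was at 72.1, 91.7 and 70.9 CPM in WT vehicle and 53.9, 66.2 and 76.9 CPM in WT tunicamycin. LKO samples had 73.1, 49.3 and 69.7 CPM with vehicle and 30.9, 41.8, 44.4 and 39.02 CPM after tunicamycin. The treated LKO samples were the 4 lowest of all 13. With tunicamycin the log2 fold change was -0.25 ± 0.18 in WT and -0.71 ± 0.17 in LKO, with edgeR adjusted p of 0.543 and 0.175.

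Arg1, the arginase that releases urea, was at 264 ± 23.3 CPM (SD, n = 3) in WT vehicle and 278 ± 48.01 CPM (n = 3) in WT tunicamycin. In LKO it was at 256 ± 35.8 CPM (n = 3) and 258 ± 29.8 CPM (n = 4). Its log2 fold changes were 0.07 ± 0.16 in WT and 0.01 ± 0.15 in LKO, so the last enzyme of the cycle did not share the lower values of the first. Nags, which makes the N-acetylglutamate that activates Cps1 (chromosome 11, 102145513 to 102149528), was at 6.58, 7.68 and 6.99 CPM in WT vehicle and 11.8, 12.6 and 8.63 CPM in WT tunicamycin. All 3 treated WT samples lay above all 3 WT vehicle samples. LKO samples had 9.58, 9.04 and 7.23 CPM with vehicle and 6.92, 9.09, 9.46 and 7.80 CPM after tunicamycin, with overlap. For Nags the log2 fold change was 0.64 ± 0.18 in WT and -0.03 ± 0.16 in LKO, with edgeR adjusted p of 0.114 and 0.965. On the FPKM scale, where the added 1 shrinks changes of low genes, its WT value was as small as 0.25.

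**Figure D3:**
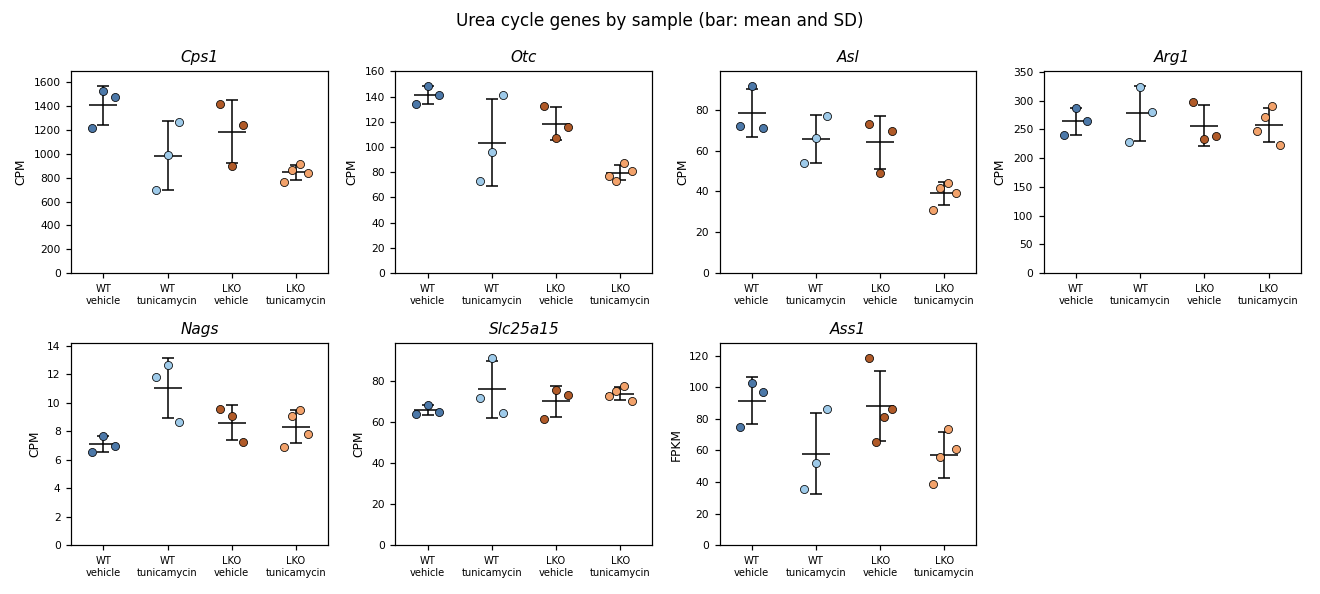
CPM of 6 urea cycle genes and deposited FPKM of Ass1 in each sample of the 4 groups, with mean and SD as bars. Asl in LKO tunicamycin lies between 30.9 and 44.4 CPM, below all other groups, and Nags is higher in all 3 WT tunicamycin samples than in WT vehicle.

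Among the aminotransferases and glutamate enzymes, 5 of 6 had negative values in each genotype. Gpt, the cytosolic alanine aminotransferase, was at 28.5, 30.8 and 28.7 CPM in WT vehicle and 16.8, 24.8 and 27.3 CPM in WT tunicamycin, with no overlap. In LKO it was at 31.9, 27.1 and 25.4 CPM and 19.7, 22.7, 25.2 and 22.8 CPM, again with no overlap. Its log2 fold changes were -0.36 ± 0.16 and -0.31 ± 0.14. Gpt2, the mitochondrial alanine aminotransferase (chromosome 8, 85492617 to 85527558), was at 88.6, 115 and 104 CPM in WT vehicle and 95.1, 76.7 and 119 CPM in WT tunicamycin. LKO samples had 104, 96.4 and 119 CPM with vehicle and 59.9, 74.6, 81.4 and 84.1 CPM after tunicamycin. The log2 fold change of Gpt2 was -0.08 ± 0.17 in WT and -0.51 ± 0.16 in LKO, with edgeR adjusted p of 0.879 and 0.247. Got1 and Got2, the cytosolic and mitochondrial aspartate aminotransferases, had log2 fold changes of -0.01 and -0.12 in WT and -0.17 and -0.14 in LKO. Glud1, glutamate dehydrogenase, was at 0.09 and 0.13, the single positive member of this group in both genotypes. Gls2, liver glutaminase, was at -0.41 ± 0.35 and -0.52 ± 0.32, with a spread in LKO vehicle from 42.3 to 91.9 CPM.

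The 4 genes of tyrosine breakdown were negative in both genotypes. Hpd, which makes homogentisate (chromosome 5, 123171807 to 123182686), was at 200.4, 239 and 214 CPM in WT vehicle and 139, 165 and 218 CPM in WT tunicamycin. LKO samples had 223, 174 and 211 CPM with vehicle and 116, 133, 145 and 133 CPM after tunicamycin, and these ranges did not overlap. For Hpd the log2 fold change was -0.32 ± 0.17 in WT and -0.62 ± 0.15 in LKO, with edgeR adjusted p of 0.374 and 0.197. Hgd, homogentisate dioxygenase, gave -0.24 and -0.37, without overlap in either genotype. Fah, fumarylacetoacetate hydrolase, gave -0.16 and -0.19, and Tat gave -0.11 and -0.42.

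Tryptophan breakdown was divided. Tdo2, the first and rate-limiting enzyme (chromosome 3, 81958414 to 81975728), was at 337, 359 and 394 CPM in WT vehicle and 229, 271 and 326 CPM in WT tunicamycin, without overlap. In LKO it was at 319, 277 and 393 CPM and 277, 222, 271 and 227 CPM, with overlap at 277 CPM. For Tdo2 the log2 fold change was -0.40 ± 0.17 in WT and -0.40 ± 0.16 in LKO, with edgeR adjusted p of 0.279 and 0.330. Haao, which makes quinolinate, gave -0.35 and -0.30, Kmo, which hydroxylates kynurenine, -0.03 and -0.20, and Kynu, kynureninase, 0.03 and 0.10. Acmsd, which diverts the pathway from NAD synthesis, gave 0.94 ± 0.46 in WT, where WT tunicamycin 2 stood at 22.8 CPM and the other two at 5.63 and 5.70 CPM.

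For serine, proline and lysine, 3 of 4 members were negative in WT and 4 of 4 in LKO. Prodh, proline dehydrogenase (chromosome 16, 18071726 to 18089190), was at 23.9, 24.9 and 25.9 CPM in WT vehicle and 17.04, 14.9 and 27.3 CPM in WT tunicamycin. LKO samples had 20.6, 26.2 and 26.7 CPM with vehicle and 10.8, 18.7, 10.5 and 20.4 CPM after tunicamycin. The treated LKO samples lay in a low and a less low pair, all below the vehicle range. On the log2 scale Prodh differed by -0.34 ± 0.24 in WT and -0.71 ± 0.22 in LKO, with edgeR adjusted p of 0.561 and 0.247. Aldh4a1, the next enzyme of proline breakdown, gave -0.22 and -0.32. Aass, the first enzyme of lysine breakdown, gave -0.14 and -0.47, and Sds, serine dehydratase, 0.22 and -0.04.

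Histidine genes were mixed, with 3 of 4 negative in each genotype. Uroc1, urocanate hydratase (chromosome 6, 90333289 to 90364548), was at 78.3, 70.1 and 60.4 CPM in WT vehicle and 52.6, 59.7 and 57.3 CPM in WT tunicamycin, without overlap. LKO samples had 77.2, 77.1 and 62.3 CPM and 61.2, 54.95, 60.5 and 62.4 CPM. On the log2 scale Uroc1 differed by -0.30 ± 0.13 and -0.27 ± 0.12, with edgeR adjusted p of 0.282 and 0.369. Hal, histidase, gave 0.25 and 0.04, and its neighbour on chromosome 10, Amdhd1, gave -0.35 and -0.09. Ftcd, which passes the one-carbon unit of histidine to folate, gave -0.22 and -0.08.

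In the methionine cycle, 4 of 5 members were negative in WT and 5 of 5 in LKO, with Gnmt and Ahcy lowest in LKO. Ahcy, which clears S-adenosylhomocysteine (chromosome 2, 155059312 to 155074497), was at 78.2, 104 and 77.2 CPM in WT vehicle and 62.1, 65.7 and 84.8 CPM in WT tunicamycin. LKO samples had 83.9, 62.97 and 83.8 CPM with vehicle and 43.4, 59.6, 48.8 and 55.6 CPM after tunicamycin, without overlap. For Ahcy the log2 fold change was -0.29 ± 0.17 in WT and -0.57 ± 0.16 in LKO, with edgeR adjusted p of 0.461 and 0.215. Gnmt, which uses surplus S-adenosylmethionine on glycine, gave -0.36 ± 0.28 and -0.58 ± 0.26. Mat1a, which makes S-adenosylmethionine in liver, gave 0.24 ± 0.21 and -0.09 ± 0.20. Bhmt gave -0.32 and -0.01, and Bhmt2, its relative that uses S-methylmethionine, -0.15 and -0.08. The single CCAAT match of the Ahcy window lay 233 to 237 bases before its start.

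Transsulfuration and cysteine genes did not share one direction. Cbs, cystathionine beta-synthase, had positive values of 0.27 ± 0.20 in WT and 0.28 ± 0.18 in LKO. Cth, cystathionine gamma-lyase, gave -0.14 and -0.15. Cdo1, cysteine dioxygenase, gave -0.25 and -0.04. Csad, which makes hypotaurine on the way to taurine, gave -0.77 ± 0.40 in WT and 0.45 ± 0.37 in LKO, with individual LKO tunicamycin samples from 6.63 to 37.2 CPM.

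All 6 branched-chain members were negative in both genotypes, from -0.46 to -0.18 in WT and from -0.56 to -0.18 in LKO. Ivd, isovaleryl-CoA dehydrogenase of leucine breakdown (chromosome 2, 118862000 to 118881357), was at 22.7, 22.6 and 22.6 CPM in WT vehicle and 14.98, 17.00 and 25.6 CPM in WT tunicamycin. LKO samples had 27.4, 18.3 and 22.4 CPM with vehicle and 12.2, 14.6, 18.7 and 15.3 CPM after tunicamycin, and LKO vehicle 2 lay within the treated range. On the log2 scale Ivd differed by -0.24 ± 0.20 in WT and -0.56 ± 0.18 in LKO, with edgeR adjusted p of 0.609 and 0.247. Mccc1 and Mccc2, the subunits of methylcrotonyl-CoA carboxylase in the same pathway, gave -0.33 and -0.46 in WT and -0.22 and -0.48 in LKO. Bckdha, Bckdhb and Dbt, subunits of the branched-chain keto acid dehydrogenase, gave -0.23, -0.18 and -0.36 in WT and -0.35, -0.18 and -0.32 in LKO.

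Within glycine and one-carbon metabolism, the folate-linked mitochondrial dehydrogenases Sardh and Dmgdh and the folate enzyme Shmt1 had negative values in both genotypes, and Amt, a subunit of the glycine cleavage system, positive ones. Sardh, sarcosine dehydrogenase (chromosome 2, 27188393 to 27247303), was at 106, 122 and 116 CPM in WT vehicle and 74.2, 86.3 and 111 CPM in WT tunicamycin. LKO samples had 109, 106 and 105 CPM with vehicle and 58.7, 74.4, 69.9 and 72.3 CPM after tunicamycin. The LKO groups were tight and far apart, and WT tunicamycin 3 lay inside the WT vehicle range. For Sardh the log2 fold change was -0.34 ± 0.15 in WT and -0.64 ± 0.13 in LKO, with edgeR adjusted p of 0.280 and 0.175.

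Dmgdh, dimethylglycine dehydrogenase, the step before Sardh in choline breakdown (chromosome 13, 93674436 to 93752823), was at 89.8, 114 and 102 CPM in WT vehicle and 58.8, 61.3 and 92.8 CPM in WT tunicamycin. LKO samples had 87.5, 93.00 and 102 CPM and 77.7, 70.9, 53.5 and 64.5 CPM, without overlap. On the log2 scale Dmgdh differed by -0.52 ± 0.18 in WT and -0.50 ± 0.16 in LKO, with edgeR adjusted p of 0.168 and 0.260. Bhmt2, which shares the printed interval with Dmgdh, gave -0.15 and -0.08 in the same comparisons. Shmt1, cytosolic serine hydroxymethyltransferase (chromosome 11, 60788897 to 60811265), was at 18.7, 18.6 and 22.1 CPM in WT vehicle and 11.5, 16.2 and 17.1 CPM in WT tunicamycin. LKO samples had 23.9, 19.1 and 19.3 CPM and 11.2, 16.8, 16.2 and 17.1 CPM, and neither genotype showed overlap. For Shmt1 the log2 fold change was -0.41 ± 0.18 and -0.43 ± 0.16, with edgeR adjusted p of 0.296 and 0.308. Gldc, the glycine decarboxylase, gave -0.04 in WT and -0.45 in LKO. Agxt, the peroxisomal glyoxylate aminotransferase, gave 0.14 and -0.20, and Amt 0.29 and 0.36.

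**Figure D4:**
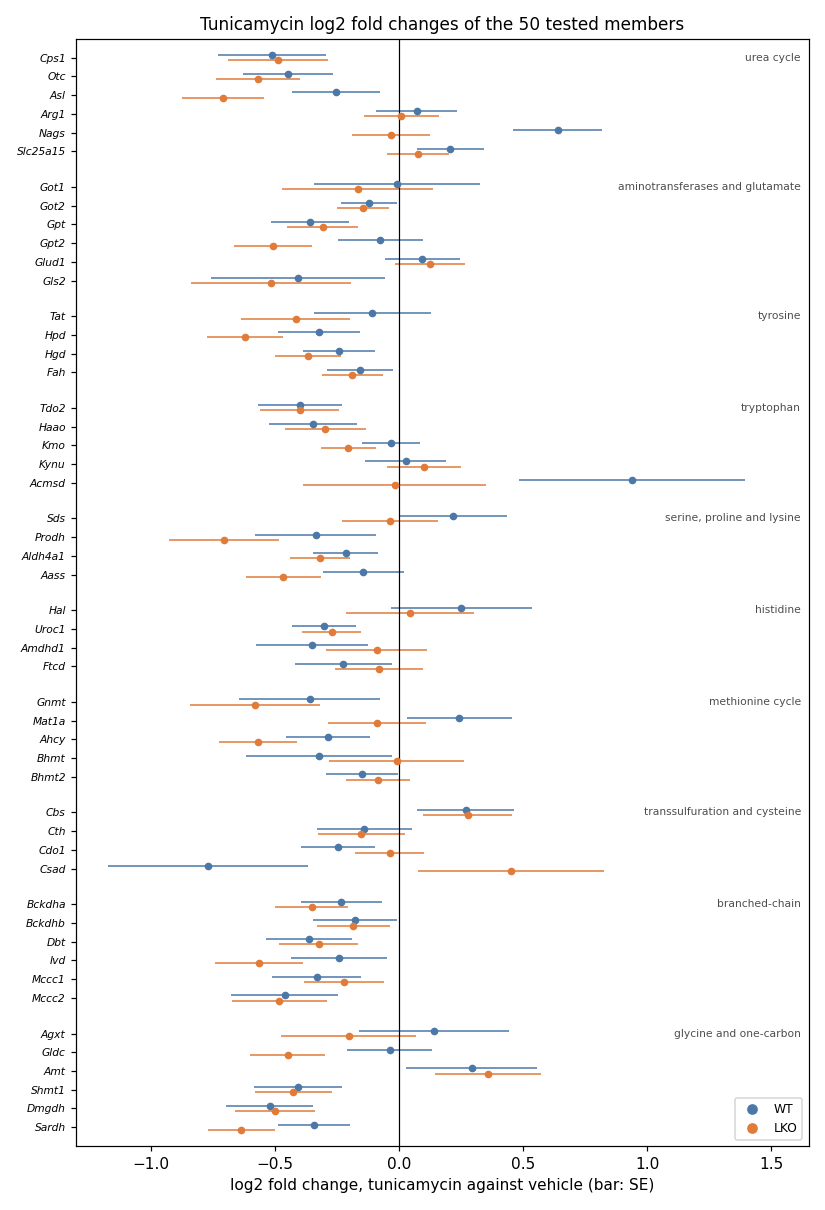
Tunicamycin log2 fold change with its SE for each of the 50 tested members, grouped by role, in WT (blue) and LKO (orange). The branched-chain and tyrosine genes all lie left of 0 in both genotypes, and Nags, Acmsd and Csad are the widest apart between genotypes.

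Vehicle samples compare the genotypes without added stress. LKO animals carry Cre and WT animals lack it, so loss of Rbbp5 and presence of Cre cannot be told apart. The members as a whole were level between genotypes, with 29 of 50 negative and a median log2 fold change of -0.02, against 0.00 over all genes. In edgeR 0 of 50 passed, where 0.0415% of all genes passed, and DESeq2 and limma on FPKM also called 0. At an unadjusted p under 0.05, 2 were lower and 2 higher, against 3.47% and 4.71% of all genes. CPM ranges did not overlap for 5 lower and 2 higher members, against 7.6% and 7.5% of all genes.

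Csad (chromosome 15, 102176998 to 102189043) had the widest gap between genotypes, at 39.1, 25.5 and 39.6 CPM in WT vehicle and 16.3, 12.2 and 18.4 CPM in LKO vehicle, without overlap. Its log2 fold change was -1.15 ± 0.39, with an edgeR adjusted p of 0.440. It passed with no filter on low counts, at an edgeR adjusted p of 0.0139, and with only the vehicle groups in the fit, at 0.0371. Bhmt2 (chromosome 13, 93656097 to 93674302) was at 26.2, 33.5 and 28.1 CPM in WT vehicle and 35.8, 39.5 and 35.3 CPM in LKO vehicle, without overlap, a log2 fold change of 0.33 ± 0.14 with an edgeR adjusted p of 0.550. Acmsd (chromosome 1, 127729413 to 127767564) was at 3.71, 7.68 and 6.26 CPM and 13.01, 10.6 and 10.1 CPM, again without overlap, which gave 0.93 ± 0.43 with an edgeR adjusted p of 0.602. Kmo was at 69.6, 72.9 and 71.8 CPM and 64.4, 62.9 and 51.8 CPM, which gave -0.26 ± 0.12 with an edgeR adjusted p of 0.582. The other four by smallest p were Bckdha at -0.31, Mccc1 at -0.30, Asl at -0.29 and Haao at -0.27.

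After tunicamycin, 1 member passed the test between genotypes. Asl was lower in LKO than in WT, at 30.9, 41.8, 44.4 and 39.02 CPM against 53.9, 66.2 and 76.9 CPM, and the ranges did not overlap. The log2 fold change was -0.75 ± 0.17, or 40.5% less transcript, with an edgeR adjusted p of 0.0460. Over all genes 0.861% passed. The call did not survive 11 of the 13 fits that left out 1 sample, and it remained without LKO vehicle 2 or LKO vehicle 3. Over the 26 alternatives the log2 fold change ran from -0.88 to -0.56 and the adjusted p from 0.00263 to 0.166. With the replicate block the adjusted p was 0.111, with only the tunicamycin groups in the fit 0.0828, with total count scaling 0.0799, and on log2(FPKM + 1) by limma 0.122. Total count scaling moved all genes in this comparison, and relative to their median Asl was at -0.74 with TMM and -0.73 with total counts.

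At an unadjusted p under 0.05, 9 members were lower and 1 was higher in treated LKO than in treated WT, against 8.25% and 7.55% of all genes. CPM ranges did not overlap for 4 lower and 0 higher members, against 6.58% and 6.34% of all genes. Negative values numbered 36 of 50, with a median of -0.13 against -0.01 over all genes. Counted from 0, this split moves with the scaling. Total count scaling moved the median of all genes to 0.14 and left 22 of 50 members negative, with a members' median of 0.01. Relative to the median of all genes, the members' median was -0.12 with TMM and -0.13 with total counts, and 36 and 34 of 50 members lay below it. In the FPKM fit 23 of 51 were negative, 28 lay below the median of all genes, and the members' median relative to it was -0.04. Without WT tunicamycin 3 the lower members at an unadjusted p under 0.05 numbered 3, against 6.70% of all genes, and without LKO tunicamycin 1 they numbered 5, against 7.27%.

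Kmo, kynurenine hydroxylase (chromosome 1, 175632193 to 175660853), was at 72.4, 73.97 and 63.2 CPM in WT tunicamycin and 52.1, 56.3, 49.5 and 49.2 CPM in LKO tunicamycin, without overlap. Its log2 fold change was -0.43 ± 0.11, with an edgeR adjusted p of 0.0763, and DESeq2 called it at an adjusted p of 0.0163. Bhmt2, the 1 higher member, was at 22.7, 28.5 and 28.05 CPM and 37.9, 39.5, 33.7 and 28.4 CPM, which gave 0.40 ± 0.14 with an edgeR adjusted p of 0.172. Total count scaling brought Bhmt2 past the threshold, at 0.55 with an edgeR adjusted p of 0.0350, while relative to the median of all genes it was at 0.41 under both scalings. Dmgdh, on the other side of the shared interval, gave -0.09 in this comparison. Ahcy gave -0.45 ± 0.16, without overlap, and Sardh -0.40 ± 0.14, with edgeR adjusted p of 0.189 and 0.176. Hpd gave -0.40, Bckdha -0.43 and Nags -0.40, with edgeR adjusted p of 0.217, 0.195 and 0.240.

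**Figure D5:**
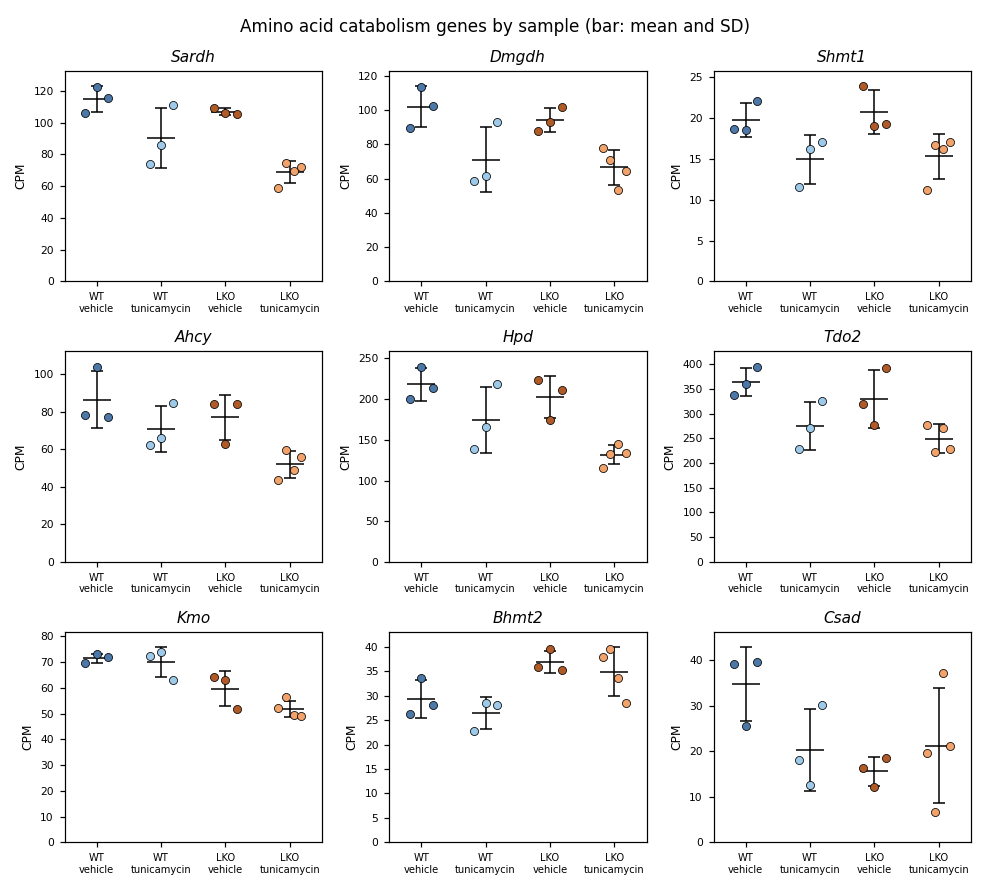
CPM of 9 members in each sample of the 4 groups, with mean and SD as bars and every axis starting at 0. Sardh, Dmgdh, Shmt1, Ahcy and Hpd are lower in LKO tunicamycin than in LKO vehicle without overlap, while Kmo and Bhmt2 differ mainly between genotypes.

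The interaction asks whether tunicamycin acted differently in the genotypes. In edgeR 0 of 50 members passed, where 0% of all genes passed, and DESeq2 and limma on FPKM called 0 members as well. At an unadjusted p under 0.05 there were 2 members, 1 in each direction, against 4.91% of all genes. Nags had an interaction of -0.67 ± 0.24, set by its higher values in treated WT and level values in LKO, with an edgeR adjusted p of 0.937. Csad had an interaction of 1.22 ± 0.55, from negative in WT to positive in LKO, with an edgeR adjusted p of 0.953. Asl followed at -0.46 ± 0.24, with an edgeR adjusted p of 0.981. The larger number of members below the unadjusted threshold in LKO was thus not matched by a tested difference between the genotypes.

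A further 62 genes of the same pathways, listed by function with earlier results of these data known, had 56 with enough reads. In WT 38 of 56 were negative with tunicamycin, with a median of -0.19 against 0.01 over all genes. In edgeR 0 passed, and 10 were lower and 0 higher at an unadjusted p under 0.05, against 6.86% and 7.92% of all genes. In LKO 39 of 56 were negative, with a median of -0.15 against 0.00, 0 passed, and 14 were lower and 4 higher, against 6.33% and 5.83%. Between genotypes with vehicle 0 passed, and 2 were lower and 0 higher at an unadjusted p under 0.05, against 3.47% and 4.71%. After tunicamycin 0 passed, and 10 were lower and 1 higher, against 8.25% and 7.55%. Glul, the glutamine synthetase that traps ammonia around the central vein, had tunicamycin log2 fold changes of -0.16 ± 0.29 (SE) in WT and -0.08 ± 0.27 in LKO, and Oat, ornithine aminotransferase of the same cells, 0.09 ± 0.29 and -0.42 ± 0.27, with SEs as large as or larger than the WT values.

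Of 18 regulators and amino acid transporters tested, 1 passed in LKO against WT after tunicamycin, where 0.861% of all genes passed. With tunicamycin in WT, with tunicamycin in LKO and between genotypes with vehicle, 0 passed. The shares of all genes there were 0.363%, 0.0311% and 0.0415%. Hnf4a, a nuclear receptor that sustains hepatocyte gene expression, was below WT in treated LKO liver, at 121, 119, 114 and 122 CPM against 183, 173 and 164 CPM. The log2 fold change was -0.54 ± 0.12, with an edgeR adjusted p of 0.0405. Leaving out single samples ended the call in 9 of 13 fits, and so did the replicate block, with an adjusted p of 0.108, and total count scaling, with 0.115. Relative to the median of all genes Hnf4a was at -0.53 under both scalings. With vehicle Hnf4a was at 153, 156 and 151 CPM in WT and 123, 134 and 161 CPM in LKO, a log2 fold change of -0.14 ± 0.12. Cebpa, a regulator of urea cycle genes, gave -0.26 ± 0.17 with tunicamycin in WT and -0.35 ± 0.15 in LKO. Klf15, which drives amino acid breakdown genes in fasting, gave -0.21 and -0.26. Cebpb gave 0.10 and -0.03, and the glucagon receptor Gcgr -0.17 and 0.07. The smallest edgeR adjusted p of these 4 genes in the tunicamycin comparisons was 0.366, for Cebpa in LKO.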

How the data were processed

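Poly(A) RNA of mouse liver was measured in 14 libraries, per the labels. The deposited counts are whole reads per gene, with the 3 columns and summary lines of STAR gene counts per the file headers, and the column of the gene's strand was used, which held 99.5 to 99.6% of stranded reads. Per the submitters' processing notes, the tools were Trimmomatic, STAR and Cufflinks and the build mm10, and versions are not given in the sources used here. The deposited FPKM values form 1 table of the same libraries, per the file headers, from which 277 names listed more than once were dropped. No per-sample column was unused (0 columns). Gene positions are those of the deposited FPKM table.

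Pairs of libraries within a group were compared by chi-square over genes with at least 20 reads. Chi-square per degree of freedom was 1.12 for LKO vehicle 3 and 4, against 3.05 to 25.5 for 17 other pairs, so these 2 were summed, which left 13 samples. Counts were fitted with edgeR 4.0.16 in R 4.3.3 (TMM, filterByExpr, quasi-likelihood, 1 mean per group, 9 residual degrees of freedom, biological coefficient of variation 0.155) over 9644 genes, with Benjamini-Hochberg adjusted p under 0.05 as the call. The fit was tested on simulated data. FPKM were tested with limma 3.58.1 on log2(FPKM + 1), with a mean FPKM of at least 1, and DESeq2 1.42.0 was an alternative. Reads carry no molecular identifiers, so depth alone understates the error.

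The members and gene lists were chosen with earlier results of these data known. Full values are given for members called in a pairwise comparison and for the 8 with the smallest unadjusted p in each (3 in the interaction). Further genes named are those called, and Glul, Oat, Cebpa, Cebpb, Hnf4a, Klf15 and Gcgr. Another gene of this rule is not reported here. Other members are given by fold change. Alternatives were other scalings, filters, tools, units, a replicate block and leaving out each sample.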

Additional observations from a re-analysis of the deposited data

Results flagged for a closer look

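Among 50 tested members, 3 had an LKO tunicamycin sample far from the other three. The gap to the nearest sample was 0.841 of the whole range for Aass, where LKO tunicamycin 1 stood at 53.2 CPM and the others at 75.9 to 80.2 CPM. It was 0.840 for Shmt1, where LKO tunicamycin 1 stood at 11.2 CPM and the others at 16.2 to 17.1 CPM. It was 0.834 for Agxt, where LKO tunicamycin 3 stood at 28.8 CPM and the others at 15.6 to 17.8 CPM. Chance gives about 1 such group in 20. The remaining groups had 3 samples and were not examined in this way.

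Of 131 listed genes looked at for opposite tunicamycin shifts without overlap in the genotypes, only Hnf4a had them. Hnf4a was higher in all 3 WT tunicamycin samples than in WT vehicle, and lower in all 4 LKO tunicamycin samples than in LKO vehicle. Over all genes, 8.62% were higher without overlap in WT and 6.55% lower in LKO. Genes with both were not counted over all genes, so the finding is descriptive. The interaction of genotype and tunicamycin was -0.40 on the log2 scale, and edgeR gave it an adjusted p of 0.937, so the difference did not pass over all genes. The WT value of Hnf4a was 0.17 with TMM and -0.0165 with total count scaling, which lowered the median of all genes to -0.18. Relative to that median it was 0.16 under both.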

How the results depend on the processing

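Counts of members called at an adjusted p under 0.05 were small throughout. With tunicamycin in WT the count of 0 became 6 without WT tunicamycin 3, while the count over all genes went from 35 to 615, and leaving out single samples gave 0 to 6. In LKO the count of 0 became 5 with no filter on low counts and 4 with DESeq2, while the count over all genes went from 3 to 153 and 34, and leaving out single samples gave 0 to 4. With vehicle, LKO against WT gave 1 in place of 0 with no filter on low counts and with only the 2 groups compared, where all genes went from 4 to 84 and 25, and 0 in each fit that left out a sample. After tunicamycin the count of 1 became 2 with DESeq2 (all genes from 83 to 130) and 0 with the replicate block, with only the 2 groups compared, and with log2(FPKM + 1) filtered, unfiltered or without the LKO vehicle 2 column (an alternative chosen after seeing the data), and with log2(FPKM + 0.1). Leaving out single samples gave 0 to 1. The interaction had 0 in each setting. The cause was not tested.

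Of 52 log2 fold changes of named genes, 46 kept their sign under each alternative. The exceptions were 6 values of Oat, Cebpb, Hnf4a, Glul and Gcgr. With tunicamycin in WT, total count scaling gave -0.115 for Oat, -0.0888 for Cebpb and -0.0165 for Hnf4a. This scaling shifted all genes, to a median of -0.18, and relative to it the 3 genes were at 0.06, 0.09 and 0.16, against 0.08, 0.09 and 0.16 with TMM. Oat was -0.0255 with each log2(FPKM + 1) fit, -0.0261 with log2(FPKM + 0.1) and ran from -0.12 to 0.30 when single samples were left out. In LKO, Cebpb was 0.0173 with log2(FPKM + 1), filtered or not, 0.0219 with log2(FPKM + 0.1) and 0.0283 without the LKO vehicle 2 column, and Glul was 0.21 without that column. Leaving out single samples gave -0.22 to 0.20 for Cebpb, -0.35 to 0.25 for Glul and -0.0576 to 0.168 for Gcgr in LKO.

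At an unadjusted p under 0.05 (read under each setting after seeing the data), 0 to 26 members were lower with tunicamycin in WT, 11 to 25 in LKO, 0 to 5 in LKO against WT with vehicle and 2 to 13 after tunicamycin. The share of all genes that were lower moved as well, from 3.62% to 18.5%, 2.97% to 10.1%, 1.53% to 5.42% and 1.76% to 9.12% in the same order. The 26 came with total count scaling, where 17.99% of all genes were lower. Same-numbered samples correlated between -0.136 and 0.183 over 18 pairs, and differently numbered ones between -0.268 and 0.24. With 3 or 4 samples per group, this check cannot settle whether the numbers pair the samples. Under the replicate block the lower members numbered 11 in WT and 19 in LKO, against 7.26% and 6.44% of all genes. Depth limits Nags, Acmsd and Amt most, which had the lowest FPKM of the members.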
